A study of Mus musculus with 2 samples.

Results

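The coelomic epithelium, the sheet of cells that covers the gonad, was followed through 8 of its marker genes in 40 RNA-seq libraries of mouse gonadal somatic cells. They are the uroplakins *Upk3b* and *Upk1b*, mesothelin (*Msln*), *Lrrn4*, and the keratins *Krt7*, *Krt8*, *Krt18* and *Krt19*. They were taken as a list of surface epithelium genes, chosen with earlier results of these data known. Shares of members called, set beside those of all genes, are therefore a description and not a test of the list. The 8 genes were matched by symbol to the Ensembl identifiers of the deposited counts, and all were among the 42422 identifiers there. Of the 8, 7 passed the filter on low counts and were tested with 15125 genes in all, and *Msln* did not pass.

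Embryos came from matings of Swiss females with *Oct4*-eGFP males of the inbred 129T2svJ strain, and were wild type apart from this GFP reporter. They were taken at E12.5, when males could be told from females by eye from their testis cords. Gonads were either dissociated without culture (0 h) or cultured as gonad-mesonephros pairs for 24 or 72 h, after which the mesonephros was cut away, and GFP-negative cells were sorted so that the GFP-positive germ cells were left out. The 10 groups of 4 libraries are XX and XY cells at 0 h, XX and XY cells after 24 h and 72 h with the vehicle DMSO, and XY cells after 24 h and 72 h with the FGF receptor inhibitor BGJ398 (FGFRi) or the MEK1/2 inhibitor PD0325901 (MEKi), each at 500 nM. Each library was a pool of several gonads, and no XX cells were cultured with an inhibitor. Values are bulk measurements of all GFP-negative cells of the gonad. The number of coelomic epithelium cells, their RNA per cell and RNA from other cells that make these genes therefore cannot be told apart.

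The coelomic epithelium is the mesothelium of the gonad. It gives rise to supporting and interstitial cells while the gonad forms, and it stays as the surface layer of both the testis and the ovary. Uroplakins are membrane proteins best known from the bladder lining, and *Upk3b* is also a widely used mesothelial marker. Keratins are intermediate filament proteins that assemble as pairs of a type I and a type II chain. *Krt8* and *Krt7* are type II chains, and *Krt18* and *Krt19* are type I chains. Simple-epithelium keratins are not restricted to the surface layer, since foetal supporting cells and the mesonephric ducts also make them.

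Each gene lies at its own locus of GRCm39, the build of the counts. *Upk3b* lies on chromosome 5 (136067350 to 136075342, + strand), *Upk1b* on chromosome 16 (38591981 to 38620727, − strand), *Msln* on chromosome 17 (25967312 to 25985619, − strand) and *Lrrn4* on chromosome 2 (132705985 to 132735941, − strand). *Krt19* is on chromosome 11 (100031636 to 100039491, − strand). The other keratins share chromosome 15, with *Krt7* at 101308924 to 101328194 (+), *Krt8* at 101905133 to 101912917 (−) and *Krt18* at 101936615 to 101940462 (+). *Krt8* and *Krt18* are neighbours that point away from each other, with 23698 bases between their starts. All members but *Krt18* overlap another annotated gene, in each case on the opposite strand. The most counted of these partners was *Crls1*, with 2592 counts over all libraries beside 5022 for *Lrrn4*, and reads were assigned with the strand in use.

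The promoters of 4 members are shown in pairs whose transcripts went together over the libraries (see the levels in the plot of members by group). Pearson's r of log2 CPM was 0.82 for *Upk3b* with *Krt7* and 0.84 for *Krt8* with *Krt18*. *Upk3b* went almost as closely with *Krt19* (0.81), which had no promoter entry, so its pairing with *Krt7* is not particular to those genes. RefSeq's promoter table (GRCm38.p6) held 5 members, the other 3 being *Upk1b*, *Msln* and *Krt19*, and each window was found once in GRCm39 by an exact match, which gave the coordinates printed here. Each line runs 5′ to 3′ from 250 bases before RefSeq's annotated start to 10 bases after it, and capitals mark a match to one of 4 motifs on either strand. That start is the 5′ end of the locus given above for *Upk3b*. It lies 1360 bases from that end for *Krt7*, 140 for *Krt8* and 36 for *Krt18*. The *Upk3b* window is chr5:136067100-136067359 (+), the *Krt7* window chr15:101310034-101310293 (+), the *Krt8* window chr15:101912768-101913027 (−) and the *Krt18* window chr15:101936401-101936660 (+).
Upk3b: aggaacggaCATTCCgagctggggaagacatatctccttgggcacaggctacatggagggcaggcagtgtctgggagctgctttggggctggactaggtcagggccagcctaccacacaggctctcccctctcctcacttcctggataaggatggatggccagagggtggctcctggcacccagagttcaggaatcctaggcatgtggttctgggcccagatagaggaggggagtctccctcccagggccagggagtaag
Krt7: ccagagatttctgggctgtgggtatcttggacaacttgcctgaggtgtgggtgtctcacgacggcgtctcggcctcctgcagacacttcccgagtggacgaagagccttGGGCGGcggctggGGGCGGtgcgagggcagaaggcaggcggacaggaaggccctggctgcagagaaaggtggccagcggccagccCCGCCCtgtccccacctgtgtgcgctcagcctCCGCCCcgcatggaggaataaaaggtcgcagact
Krt8: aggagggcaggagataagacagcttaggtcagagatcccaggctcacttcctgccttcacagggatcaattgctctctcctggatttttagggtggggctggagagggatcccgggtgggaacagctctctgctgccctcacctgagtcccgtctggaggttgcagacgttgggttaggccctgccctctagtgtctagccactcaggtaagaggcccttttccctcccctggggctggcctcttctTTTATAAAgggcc
Krt18: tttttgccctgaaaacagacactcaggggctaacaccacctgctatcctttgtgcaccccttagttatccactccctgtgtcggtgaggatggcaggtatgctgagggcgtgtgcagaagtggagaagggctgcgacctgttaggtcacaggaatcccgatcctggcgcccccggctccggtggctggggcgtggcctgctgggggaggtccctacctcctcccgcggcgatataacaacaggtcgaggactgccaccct

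The motifs were searched over the whole windows, from 250 bases before to 50 bases after the start, and their matches are a description of letters only. GGAATG, the TEAD motif, was in the *Upk3b* window, and also in that of *Lrrn4*, and was present in 14.7% of the 32851 promoter windows of the table. The start used for *Lrrn4* lies 13159 bases from the 5′ end of its locus. GGGCGG, the GC box, matched 4 times in the *Krt7* window and was in 35.7% of all windows. TATAAA, the TATA box, was in the *Krt8* window, where matches on both strands overlap across the annotated start, and was in 13.6% of all windows. TGANTCA, the AP-1 motif, was in 7.81% of all windows and in none of the 5, and the *Krt18* window held none of the 4 motifs. Neither *Upk3b* and *Krt7* nor *Krt8* and *Krt18* therefore shared a motif of the 4 in these windows. *Krt19* had no window and could not be compared.

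The libraries held 1380707 to 4836550 counts, with a median of 2248854, and no 2 libraries of a group agreed within sampling noise. *Xist* counts and counts of Y-linked *Ddx3y* matched the labelled sex in all 12 XX and 28 XY libraries. The libraries were made in 2 sets. All 0 h groups, the 24 h DMSO groups and the 24 h MEKi group are in 1 set, and the 24 h FGFRi group and all 72 h groups are in the other, so 24 h against 72 h with DMSO and FGFRi against DMSO at 24 h cannot be told apart from a difference between sets. Levels are CPM, a gene's share of its library's counts on a fixed scale, with library sizes scaled by TMM. A gene is called where edgeR's quasi-likelihood test gave an FDR (Benjamini-Hochberg, 15125 genes) under 0.05 and the difference reached 1.5-fold, and every FDR given comes from that test unless another is named.

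All members but *Msln* had counts in all 40 libraries. *Upk3b* ranged from 70.9 ± 16.1 CPM (SD, n = 4, as for all groups) in XY cells at 0 h to 221 ± 39.1 CPM in XX cells at 24 h. *Krt19*, a type I keratin of simple epithelia, spanned the widest range of the well-counted members, from 13.0 ± 2.59 CPM in XY cells at 0 h to 149.7 ± 20.6 CPM in XX cells at 24 h. *Upk1b*, a tetraspanin uroplakin, had the lowest level of the tested members, from 1.14 ± 0.668 CPM in XX cells at 0 h to 17.1 ± 3.16 CPM in XY cells after 72 h with MEKi, and its counts were 1 to 53 per library. *Lrrn4*, a leucine-rich repeat membrane protein of mesothelium, varied least, from 31.9 ± 8.67 CPM in XY cells at 0 h to 69.5 ± 11.9 CPM in XY cells after 72 h with MEKi.

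XY cells at 0 h were lowest of the 10 groups for *Upk3b*, *Lrrn4*, *Krt7* and *Krt19*, and XY cells after 72 h with DMSO were lowest for *Krt8* and *Krt18*. With the groups ordered by mean, neighbouring groups overlapped in their libraries at nearly every step. The exceptions were *Upk3b* between XY 72 h DMSO and XY 0 h, *Krt18* between XY 0 h and XY 24 h DMSO, and *Krt19* between XY 72 h FGFRi and XY 72 h DMSO and between XY 24 h DMSO and XX 0 h. XX cells at 24 h were highest for *Upk3b*, *Krt8*, *Krt18* and *Krt19*, and XY cells after 72 h with MEKi were highest for *Upk1b*, *Lrrn4*, *Krt7* and *Msln*.

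**Figure D1:**
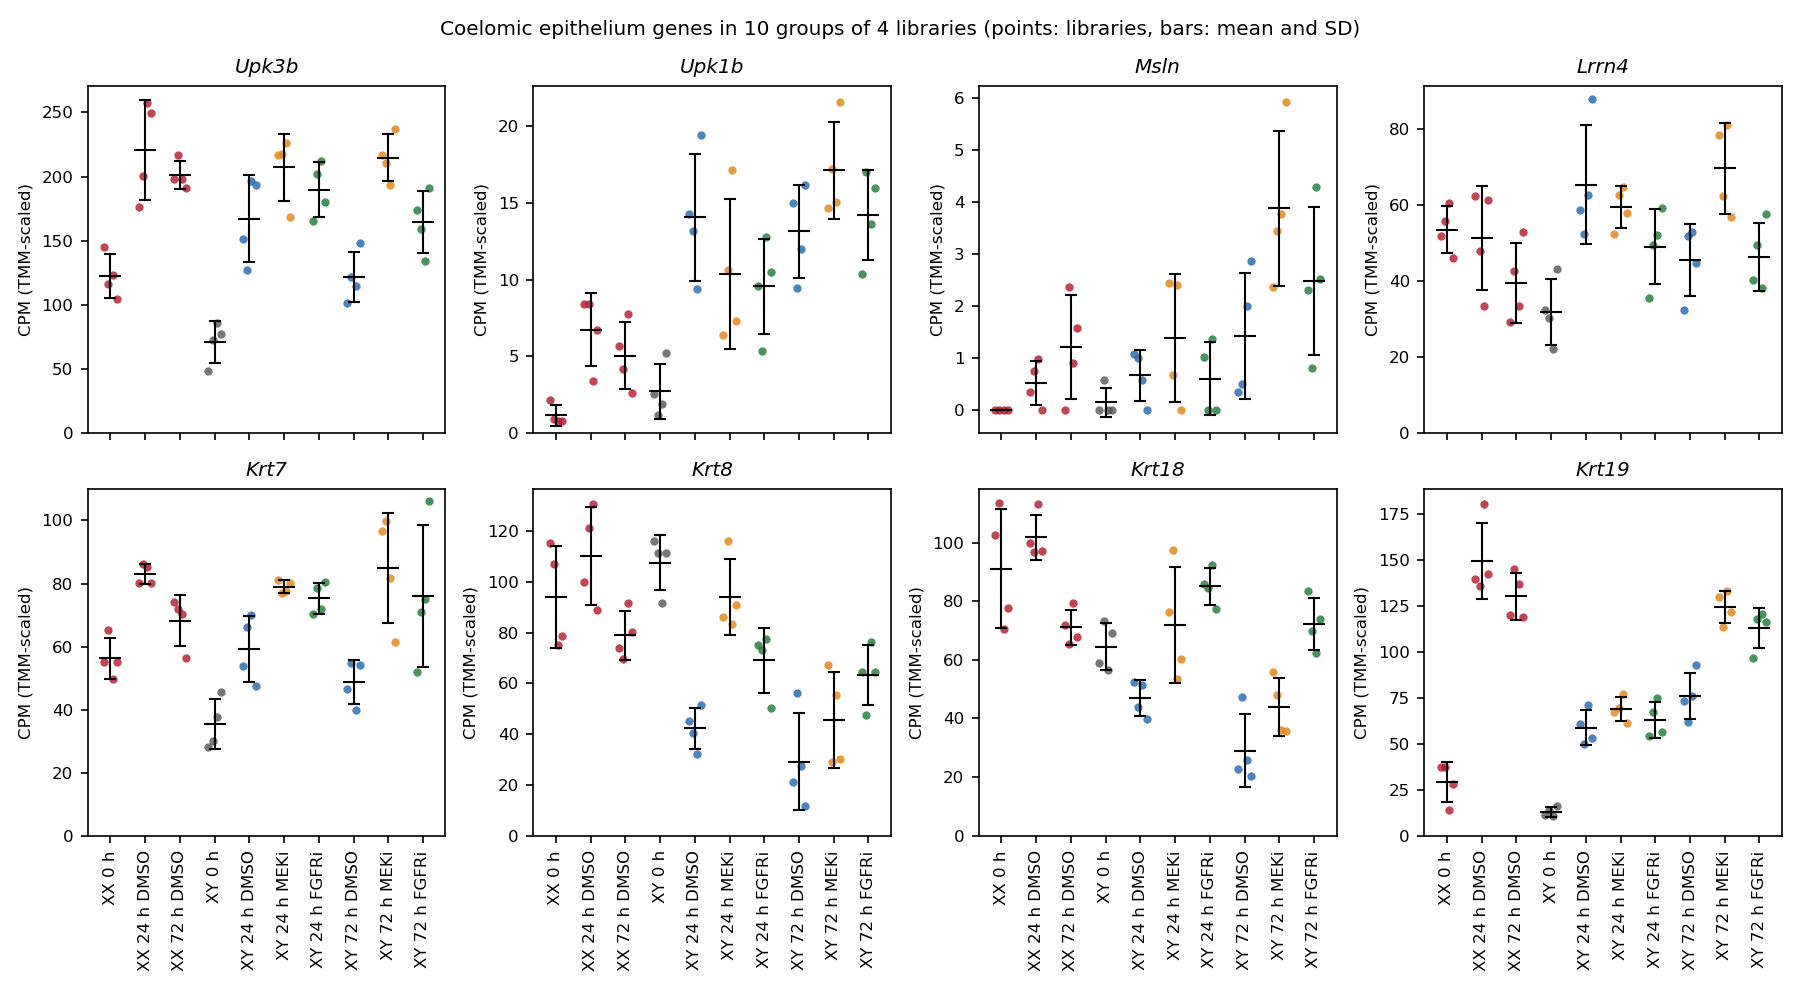
Level of each of the 8 genes in CPM (y axis, linear) in the 10 groups (x axis). Points are the 4 libraries of a group, horizontal marks are means and bars are standard deviations. XX groups are red, XY 0 h grey, and XY DMSO, MEKi and FGFRi blue, orange and green. *Krt19* rises from 13.0 to 58.8 CPM over the first 24 h in XY cells while *Krt8* falls from 108 to 42.3 CPM.

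*Msln*, which encodes a surface glycoprotein used as a mesothelial marker, was at the edge of detection, with 0 to 12 counts per library and a count in 27 of the 40 libraries. XX cells at 0 h had 0 counts in all 4 libraries, which allows up to 0.351 CPM over the group (3 counts, counting error only), and XY cells at 0 h had 1 count in 1 library. After 72 h, the 4 XY libraries had 0.333, 0.497, 2.00 and 2.86 CPM with DMSO, 0.810, 2.30, 2.52 and 4.30 CPM with FGFRi, and 2.37, 3.44, 3.77 and 5.93 CPM with MEKi. The groups overlapped. Without the filter on low counts, the log2 fold change of *Msln* with MEKi against DMSO at 72 h was 1.46 (SE 0.747, FDR 0.355), and in none of the 16 comparisons was it called. The mesothelial label of the list therefore rests on the other genes in these libraries.

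Whether the surface epithelium genes differ between ovary and testis was asked by comparing XX with XY cells at each time. Before culture, *Upk3b*, *Lrrn4*, *Krt7* and *Krt19* were higher in XX cells. After 24 h *Krt8*, *Krt18* and *Krt19* were called higher in XX cells and *Upk1b* was called lower. *Upk3b* (0.40, SE 0.134, FDR 0.0207) and *Krt7* (0.47, SE 0.146, FDR 0.0115) were also higher at 24 h, but short of 1.5-fold. After 72 h the same 4 genes were called in the same directions, and *Upk3b* was called higher as well. *Krt19* was the member called higher in XX cells at all 3 times. The log2 fold changes of the 7 tested members had a median of 0.66 at 0 h, 0.47 at 24 h and 0.73 at 72 h, beside −0.01 over all genes tested at each time.

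At 0 h, *Krt19* had 13.9, 28.3, 37.2 and 37.5 CPM in XX libraries and 10.5, 11.3, 14.2 and 16.1 CPM in XY libraries. Only the lowest XX library fell within the XY range. The log2 fold change was 1.21 (SE 0.207, FDR 5.4e-06). *Upk3b* had 105, 116, 123 and 145 CPM in XX and 48.2, 72.3, 77.4 and 85.6 CPM in XY libraries, with no overlap, and its log2 fold change was 0.78 (SE 0.152, FDR 5.37e-05). *Lrrn4* and *Krt7* were also higher without overlap, with log2 fold changes of 0.72 (SE 0.203, FDR 0.00534) and 0.66 (SE 0.168, FDR 0.00198). *Krt8*, at 94.0 ± 20.1 CPM in XX and 108 ± 10.8 CPM in XY cells, and *Krt18*, at 91.0 ± 20.3 and 64.5 ± 8.09 CPM, were not called. Thus 4 of 7 tested members were called, all higher, where 8.01% of all genes tested were called higher and 17.3% in either direction, and 3 of 7 did not overlap between the sexes, beside 22.8% of all genes. Tested against the 1.5-fold threshold itself, 1 member (*Krt19*) was called by glmTreat and 0 by voom with quality weights and treat, the method of the study. *Krt7* lost its call without XX library F3 (0.58) or XY library M2 (0.56), and *Lrrn4* without XY library M5 (0.56). *Krt18* (0.51, SE 0.168, FDR 0.0201) was called without XX library F4 or F5 (0.59 each).

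At 24 h with DMSO, the 4 *Krt8* values were 89.0, 99.9, 121 and 131 CPM in XX and 32.4, 40.3, 45.3 and 51.3 CPM in XY cells. Every XX library was above every XY library, and the log2 fold change was 1.4 (SE 0.214, FDR 4.86e-07). *Krt18*, the type I partner of *Krt8*, had 96.8, 97.2, 99.9 and 113 CPM in XX and 39.7, 44.0, 51.5 and 52.4 CPM in XY libraries, again without overlap, and a log2 fold change of 1.11 (SE 0.162, FDR 1.84e-07). *Krt19* was higher by 1.33 on the log2 scale (SE 0.140, FDR 2.17e-11). *Upk1b* moved the other way, with 3.38, 6.72, 8.41 and 8.42 CPM in XX and 9.39, 13.2, 14.3 and 19.4 CPM in XY libraries. Its log2 fold change was −0.98 (SE 0.304, FDR 0.0113). The call was lost without XX library F6 (−0.81) or XY library M5 (−0.79). In all, 4 of 7 tested members were called, beside 19.6% of all genes, and 5 did not overlap, beside 25.4%, while glmTreat and voom with treat each called 3.

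At 72 h with DMSO, *Krt8* had 69.7, 73.8, 80.4 and 91.8 CPM in XX and 11.9, 21.0, 27.4 and 56.2 CPM in XY libraries. The groups did not overlap, but the XY libraries ranged widely, with M4 far above the other 3. The log2 fold change of *Krt8* was 1.47 (SE 0.240, FDR 2.07e-06), and it was 1.22 to 1.98 with each library left out in turn. *Krt18* had 65.6, 67.9, 71.9 and 79.3 CPM in XX and 20.5, 22.7, 25.9 and 47.2 CPM in XY libraries, with the same M4 library highest, and a log2 fold change of 1.32 (SE 0.184, FDR 7.68e-08). *Upk3b* at 201 ± 11.02 against 122 ± 19.8 CPM and *Krt19* at 130.4 ± 12.9 against 76.1 ± 12.7 CPM were also higher in XX cells, by 0.73 (SE 0.141, FDR 4.65e-05) and 0.78 (SE 0.143, FDR 2.01e-05) on the log2 scale. *Upk1b* was lower, at 2.61, 4.13, 5.64 and 7.75 CPM against 9.45, 11.97, 15.0 and 16.2 CPM, with a log2 fold change of −1.31 (SE 0.339, FDR 0.00218). So 5 of 7 tested members were called, beside 20.3% of all genes, and 6 did not overlap, beside 27.0%. Against 1.5-fold itself, glmTreat called 3 and voom with treat 2. Neither *Lrrn4* (−0.21, SE 0.199, FDR 0.486) nor *Krt7* (0.49, SE 0.158, FDR 0.0157) was called, the second for falling short of 1.5-fold.

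**Figure D2:**
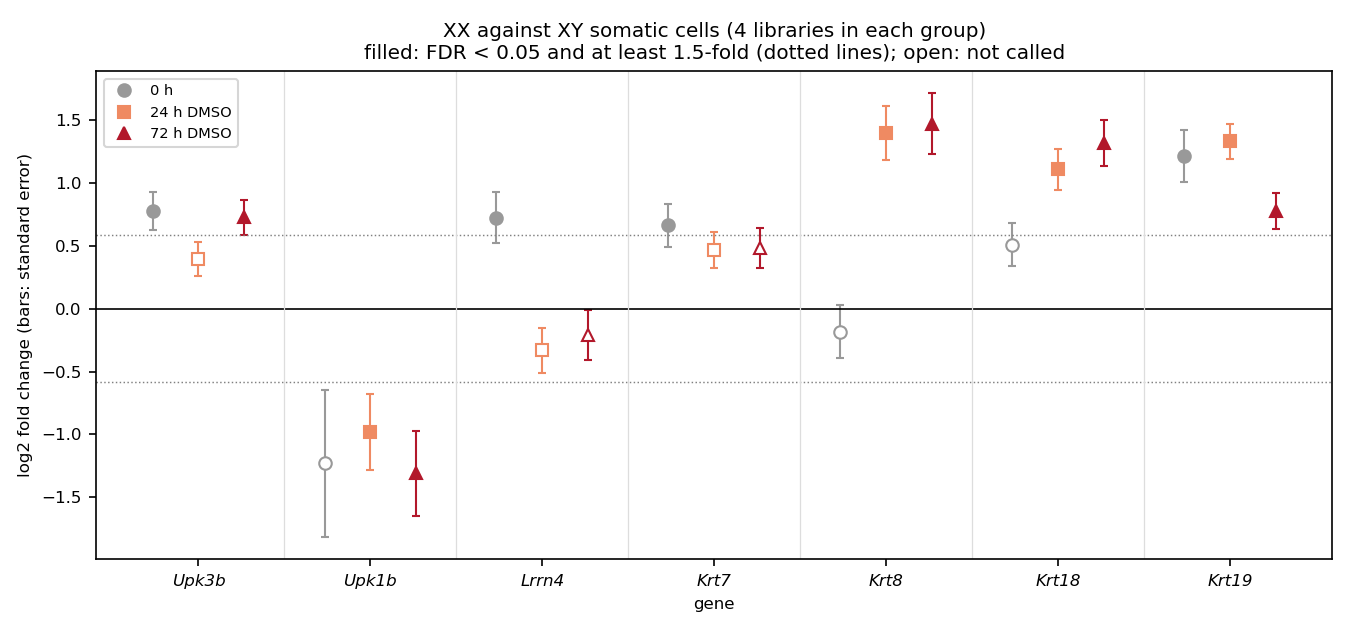
Log2 fold change of XX against XY cells (y axis) for the 7 tested genes (x axis) at 0 h (grey circles), 24 h (orange squares) and 72 h (red triangles). Bars are standard errors, and filled symbols are called genes. *Krt8* is near 0 before culture and above 1 at 24 and 72 h, and *Upk1b* is below 0 throughout.

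Other cell types of the sorted fraction also differed between the sexes, as the gonads themselves do. All 8 Sertoli cell markers were lower in XX cells at each time, and of the 7 pre-granulosa markers 7 were higher at 0 h and 24 h and 6 at 72 h. Markers of duct epithelium, which also makes these keratins, were low. Only 5 of 11 were tested, and their sum was 53.6 to 85.8 CPM in XX and 30.0 to 59.7 CPM in XY libraries at 72 h, where 2 of the 5, *Pax8* and *Epcam*, were called higher in XX cells. The part of these cell types in the members' differences was not tested.

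The surface epithelium genes differed between 0 h and 24 h. The 24 h gonads had been cultured and were also a day further in time, and these cannot be told apart. Over the first 24 h with DMSO, *Upk3b*, *Upk1b* and *Krt19* rose in cells of both sexes. *Lrrn4* and *Krt7* were called higher in XY cells, and *Krt8* was called lower there. These comparisons share no libraries between the sexes, and all 4 groups are in 1 library set.

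In XY cells, *Krt19* went from 10.5, 11.3, 14.2 and 16.1 CPM at 0 h to 50.2, 53.3, 60.6 and 71.3 CPM at 24 h. In XX cells it went from 13.9, 28.3, 37.2 and 37.5 CPM to 136, 139.8, 142 and 180.4 CPM. Neither sex overlapped between times, and the log2 fold changes were 2.17 (SE 0.186, FDR 2.19e-13) in XY and 2.29 (SE 0.157, FDR 4.28e-16) in XX cells. *Upk1b* rose by 2.27 (SE 0.374, FDR 4.97e-06) in XY cells and by 2.52 (SE 0.481, FDR 0.000124) in XX cells on the log2 scale, from 1 to 12 counts per library at 0 h. *Upk3b* rose by 1.23 (SE 0.147, FDR 3.51e-09) in XY cells and by 0.85 (SE 0.140, FDR 1.03e-05) in XX cells. *Krt7* in XX cells fell short of 1.5-fold (0.55, SE 0.153, FDR 0.0101), and was called with total counts (0.60) or without 0 h library F3 (0.63).

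*Krt8* and *Krt18* were not called higher in either sex. For *Krt8*, XY libraries had 91.8, 111, 112 and 116 CPM at 0 h and 32.4, 40.3, 45.3 and 51.3 CPM at 24 h, a log2 fold change of −1.37 (SE 0.218, FDR 2.71e-06). XX libraries had 75.2, 78.8, 107 and 115 CPM at 0 h and 89.0, 99.9, 121 and 131 CPM at 24 h, which overlapped, with a log2 fold change of 0.22 (SE 0.208, FDR 0.569). The difference between these changes was itself called, at 1.58 on the log2 scale (SE 0.301, FDR 0.000236). *Krt18* went from 56.4, 59.0, 69.1 and 73.4 CPM to 39.7, 44.0, 51.5 and 52.4 CPM in XY cells, without overlap but short of 1.5-fold (−0.45, SE 0.170, FDR 0.0466), and its log2 fold change in XX cells was 0.15 (SE 0.160, FDR 0.634). In the test of the difference between the sexes *Krt18* gave 0.60 (SE 0.233, FDR 0.124) and was not called. *Lrrn4* was called with the opposite sign, at −1.06 (SE 0.270, FDR 0.00811). It went from 22.0, 30.1, 32.3 and 43.0 CPM to 52.2, 58.5, 62.5 and 87.9 CPM in XY cells, and had 53.4 ± 6.12 and 51.2 ± 13.6 CPM at the same times in XX cells. These were the 2 of 7 tested members called in this test, beside 6.2% of all genes. With total counts in place of TMM, calls over all genes went from 531 positive and 407 negative to 414 positive and 484 negative, and both members kept sign and call. Neither glmTreat nor voom with treat called *Lrrn4*.

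In XY cells, 6 of 7 tested members were called between 0 h and 24 h, 5 higher and 1 lower, where 8.9% of all genes were called higher and 5.5% lower, 14.4% in all. The libraries of the 2 times did not overlap for any of the 7, beside 22.1% of all genes. With total counts in place of TMM, all genes moved up by 0.13 in the median and the calls over all genes went from 1346 higher and 832 lower to 1900 higher and 547 lower. The members kept their directions and calls under that scaling. In XX cells, 3 of 7 were called, all higher, beside 5.46% of all genes called higher and 7.73% in either direction, and 4 did not overlap, beside 14.6%. Against 1.5-fold itself, glmTreat called 4 members in XY and 2 in XX cells, and voom with treat 4 and 1. Erythroid markers fell over the same 24 h in 6 of 6 genes in both sexes, from 9602 to 11740 summed CPM down to 1089 to 5195 in XY libraries and from 6051 to 10410 down to 587 to 1030 in XX libraries. Sertoli markers fell in 6 of 8 genes in XY cells, from 1987 to 2313 down to 1049 to 1576 summed CPM, and in none of 8 in XX cells, where 1 rose. Smooth muscle markers rose in 3 of 4 genes in both sexes, from 100.1 to 145 up to 394 to 437 summed CPM in XY and from 81.3 to 116 up to 261 to 309 summed CPM in XX libraries. Foetal Leydig cell markers rose in 3 of 4 tested in XY cells, from 154 to 302 up to 634 to 941 summed CPM, and in XX cells 2 rose and 1 fell. Pre-granulosa markers rose in 5 of 7 in XY cells, and germ cell markers in 2 of 4 tested in XX cells. Proliferation markers fell in 4 of 4 in XY cells and in none in XX cells. Their part in the members' changes was not tested.

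**Figure D3:**
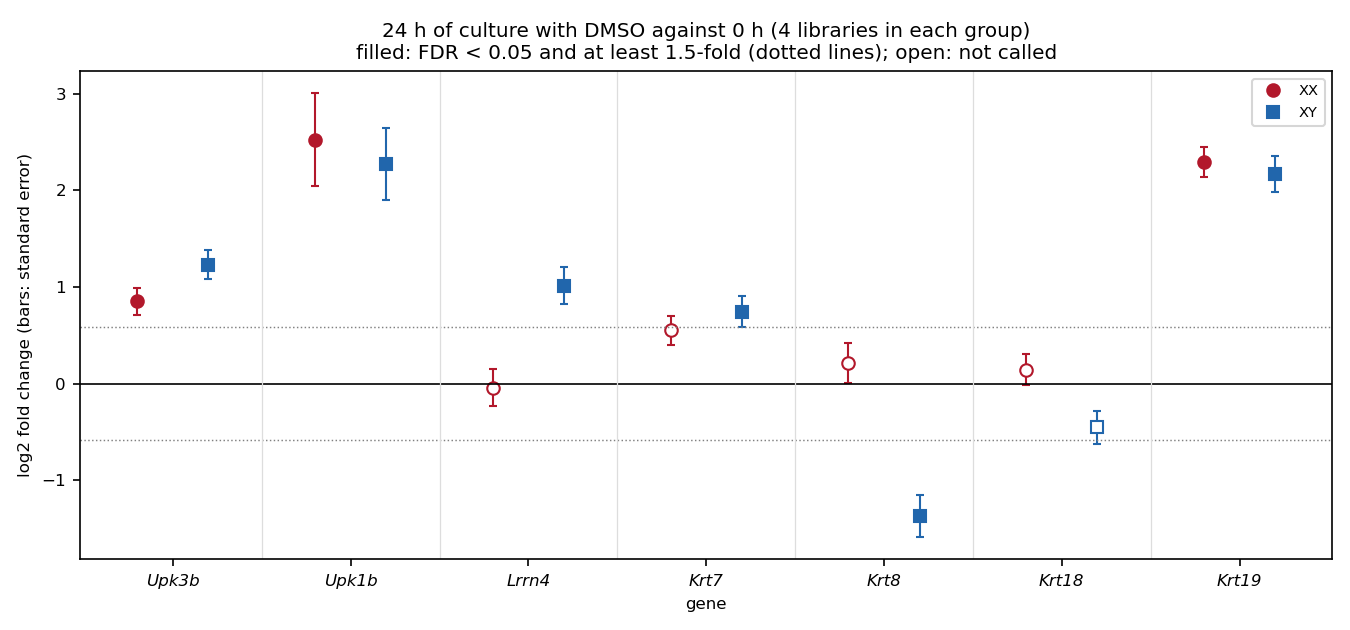
Log2 fold change of 24 h of culture with DMSO against 0 h (y axis) for the 7 tested genes (x axis) in XX (red circles) and XY (blue squares) cells. Bars are standard errors, and filled symbols are called genes. *Krt19* and *Upk1b* rise by over 2 in both sexes, while *Krt8* lies at −1.37 in XY and 0.22 in XX cells.

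Between 24 h and 72 h with DMSO, the values are a description, since the library sets differ. *Krt18* went from 46.9 ± 6.13 to 29.1 ± 12.3 CPM in XY cells, a log2 fold change of −0.71 (SE 0.184, FDR 0.00579), the only call among the 7 tested members beside 7.27% of all genes. *Upk3b* in XY cells was also lower at 72 h but short of 1.5-fold (−0.46, SE 0.139, FDR 0.0208). In XX cells 0 members were called by edgeR's quasi-likelihood test and 0 by DESeq2, beside 8.15% of all genes, and 3 members had an unadjusted p below 0.05. Among them, *Krt18* was lower at 72 h without overlap, at 71.2 ± 6.02 against 101.8 ± 7.71 CPM. It too was short of 1.5-fold (−0.50, SE 0.162, FDR 0.0304). The call of *Krt18* in XY cells was lost without 72 h library M2 (−0.60), and without 72 h library M4 *Krt8* was called as well (−1.06). *Lrrn4*, at −0.53 (FDR 0.0539), was called without 24 h library M3 (−0.62) or 72 h library M5 (−0.62). Between the same times the XX-XY difference changed for 0 of 7 members by edgeR's quasi-likelihood test and 0 by DESeq2, beside 2.04% of all genes, with 1 member, *Krt19*, at an unadjusted p below 0.05. Within 1 set, XY cells with FGFRi had more *Krt19* at 72 h than at 24 h, at 113 ± 11.1 against 63.2 ± 9.84 CPM, a log2 fold change of 0.84 (SE 0.147, FDR 3.67e-05). This was the only member called there, beside 6.7% of all genes, and neither glmTreat nor voom with treat called it. Proliferation markers were also higher in 4 of 4, smooth muscle markers higher in 3 of 4 and endothelial markers lower in 5 of 6, and their part was not tested.

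Whether blocking MEK1/2 changes the surface epithelium genes of the testis was asked in XY cells. After 24 h with MEKi, *Krt8* and *Krt18* were higher than with DMSO. After 72 h with MEKi, *Upk3b*, *Lrrn4*, *Krt7*, *Krt18* and *Krt19* were higher, by 1.53-fold to 1.77-fold. No member was called lower at either time. The median log2 fold change of the 7 tested members was 0.31 at 24 h and 0.68 at 72 h, beside −0.01 and 0.00 over all genes.

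At 24 h, *Krt8* had 83.2, 86.1, 90.7 and 116 CPM with MEKi and 32.4, 40.3, 45.3 and 51.3 CPM with DMSO. All MEKi libraries were above all DMSO libraries, and at 94.1 ± 15.1 CPM their mean was within the range of XY cells before culture. The log2 fold change was 1.16 (SE 0.219, FDR 0.000249). *Krt18* had 53.4, 60.2, 76.3 and 97.6 CPM with MEKi and 39.7, 44.0, 51.5 and 52.4 CPM with DMSO, which did not overlap. Its log2 fold change of 0.59 (SE 0.169, FDR 0.0314) lay at the threshold of 1.5-fold, and the call was lost under 7 of 10 other settings and without DMSO library M3 or M5 or MEKi library M1 or M2, each left out alone (0.42 to 0.55). The other 5 members were not called, among them *Krt7* at 79.0 ± 1.97 against 59.3 ± 10.5 CPM (0.40, SE 0.149, FDR 0.124). So 2 of 7 tested members were called, both higher, beside 1.29% of all genes called higher and 3.27% in either direction, and 3 did not overlap, beside 8.85%. Neither was called against the 1.5-fold threshold itself by glmTreat or by voom with treat.

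The 24 h MEKi libraries also differed in markers of other cells. Germ cell markers, which should be absent from GFP-negative cells, summed to 245 to 485 CPM with MEKi and 117 to 183 CPM with DMSO, and 3 of 4 tested were called higher. Endothelial markers summed to 35.6 to 50.4 and 166 to 249 CPM, and all 6 were called lower. Duct markers summed to 54.8 to 71.1 and 42.0 to 55.9 CPM, and none of 5 tested was called. Sertoli markers summed to 1040 to 1709 CPM with MEKi and 1049 to 1576 CPM with DMSO. No marker of these lists was at 0 in all libraries of either group. Their part in the *Krt8* difference was not tested.

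At 72 h, *Upk3b* had 193, 211, 217 and 237 CPM with MEKi and 102, 115, 122 and 148 CPM with DMSO. There was no overlap, and the MEKi libraries lay around the level of XX cells at 72 h (201 ± 11.02 CPM). The log2 fold change was 0.82 (SE 0.140, FDR 4.97e-05). *Krt19* had 114, 122, 129.9 and 133 CPM with MEKi and 62.1, 73.3, 76.3 and 92.8 CPM with DMSO, also without overlap, and a log2 fold change of 0.71 (SE 0.143, FDR 0.000527). *Krt7*, the type II keratin of simple and ductal epithelia, had 61.5, 81.6, 96.7 and 99.7 CPM against 39.9, 46.6, 54.2 and 54.7 CPM, with no overlap. Its log2 fold change was 0.80 (SE 0.155, FDR 0.000309).

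*Lrrn4* had 56.6, 62.3, 78.2 and 81.0 CPM with MEKi at 72 h and 32.3, 44.7, 51.7 and 52.9 CPM with DMSO. The groups did not overlap, but the log2 fold change of 0.64 (SE 0.187, FDR 0.0194) lost its call without DMSO library M2 (0.49) or MEKi library M2 (0.58) or M4 (0.54). *Krt18* had 35.6, 36.1, 48.1 and 55.9 CPM against 20.5, 22.7, 25.9 and 47.2 CPM, where DMSO library M4 lay among the MEKi libraries. Its log2 fold change was 0.61 (SE 0.191, FDR 0.0289), and it lost the call without DMSO library M2, M5 or M6 or MEKi library M2 or M3, each left out alone (0.48 to 0.57). *Krt8* had 29.0, 30.2, 55.6 and 67.3 CPM with MEKi and 11.9, 21.0, 27.4 and 56.2 CPM with DMSO. It was not called, at 0.68 (SE 0.249, FDR 0.0664), but was called without DMSO library M4, at 1.19 (FDR 0.00118), or without MEKi library M3 (0.84) or M5 (0.82). *Upk1b*, at 17.1 ± 3.16 against 13.2 ± 3.04 CPM, was not called (0.36, SE 0.293, FDR 0.457).

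Thus 5 of 7 tested members were called higher with MEKi at 72 h, beside 2.29% of all genes called higher and 6.47% in either direction, and 4 did not overlap, beside 17.2%. When fold changes were tested against 1.5-fold itself, 0 members were called by glmTreat and 0 by voom with treat, which called 132 and 75 of all genes. The changes of *Upk3b*, *Krt7* and *Krt19* are therefore shown to differ from 0 but not from 1.5-fold. Whether the MEKi effect differed between 72 h and 24 h was tested directly, and 0 of 7 members were called, beside 1.41% of all genes (edgeR's quasi-likelihood test, 0 members with voom and treat), with the largest difference at *Lrrn4* (0.76, SE 0.260, FDR 0.138). In that test 3 members had an unadjusted p below 0.05, and without the filter on low counts 1 member, *Lrrn4*, was called.

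Endothelial and macrophage markers were lower with MEKi at 72 h, 5 of 6 and 5 of 5 tested, at 27.6 to 41.7 against 57.1 to 117 summed CPM and 23.7 to 34.6 against 41.4 to 133 summed CPM. Of 8 Sertoli markers 3 were lower, at 595 to 868 against 826 to 1389 summed CPM. Foetal Leydig cell markers were higher in 3 of 4 tested, at 815.8 to 1284 against 394.8 to 599.9 summed CPM, and smooth muscle markers in 2 of 4, at 931 to 1087 against 447 to 578 summed CPM. Duct markers summed to 44.0 to 57.2 CPM with MEKi and 30.0 to 59.7 CPM with DMSO, and none of 5 tested was called. No marker of these lists was at 0 in all libraries of either group. Their part in the members' rise was not tested.

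With FGFRi at 72 h, *Krt18*, *Krt8* and *Krt7* were called higher than with DMSO, in a comparison that shares its DMSO libraries with that of MEKi. *Krt18* had 62.3, 69.7, 73.8 and 83.5 CPM with FGFRi and 20.5, 22.7, 25.9 and 47.2 CPM with DMSO. The groups did not overlap, the FGFRi mean of 72.3 ± 8.84 CPM was close to that of XX cells at 72 h (71.2 ± 6.02 CPM), and the log2 fold change was 1.32 (SE 0.184, FDR 1.24e-05). *Krt8* had 47.4, 64.5, 64.6 and 76.3 CPM with FGFRi and 11.9, 21.0, 27.4 and 56.2 CPM with DMSO, where 1 DMSO library reached into the FGFRi range. Its log2 fold change was 1.14 (SE 0.243, FDR 0.00427), and 0.90 to 1.66 with each library left out in turn.

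*Krt7* had 51.8, 70.9, 75.2 and 106 CPM with FGFRi, the widest spread of any group for this gene, and 39.9, 46.6, 54.2 and 54.7 CPM with DMSO. Its log2 fold change was 0.65 (SE 0.156, FDR 0.0129) and lost the call without FGFRi library M6 (0.45) or DMSO library M2 (0.63) or M5 (0.58), and with only the 2 groups fitted (0.64). *Krt19* had 96.7, 117, 118 and 121 CPM with FGFRi, all above the 62.1 to 92.8 CPM with DMSO, and a log2 fold change of 0.58 (SE 0.143, FDR 0.017), just under 1.5-fold. It was called under 2 other filters on low counts (0.59 and 0.60) and without DMSO library M5 (0.59) or M6 (0.69) or FGFRi library M2 (0.65). *Upk3b* (0.44, SE 0.141, FDR 0.0831), *Upk1b* (0.12, SE 0.298, FDR 0.916) and *Lrrn4* (0.05, SE 0.194, FDR 0.954) were not called. So 3 of 7 tested members were called higher, beside 0.866% of all genes called higher and 1.8% in either direction, and 2 did not overlap, beside 7.4%. Against the 1.5-fold threshold itself *Krt18* was the 1 member called by glmTreat, and voom with treat called 0 members and 0 of all genes.

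With FGFRi, macrophage markers were lower in 5 of 5 tested (14.3 to 23.1 against 41.4 to 133 summed CPM) and smooth muscle markers were higher in 3 of 4. Duct markers summed to 49.8 to 88.8 CPM, against 30.0 to 59.7 CPM with DMSO, with none of 5 tested called. Sertoli markers summed to 1275 to 2426 against 826 to 1389 CPM, with none of 8 called. No marker of these lists was at 0 in all libraries of either group, and their part in the keratin differences was not tested.

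The inhibitors were compared directly at 72 h, at the same dose of 500 nM and in 1 library set. *Krt18* was lower with MEKi, at 35.6, 36.1, 48.1 and 55.9 CPM, than with FGFRi, at 62.3, 69.7, 73.8 and 83.5 CPM. No libraries overlapped, and the log2 fold change was −0.71 (SE 0.174, FDR 0.00404). *Lrrn4* was higher with MEKi, by 0.59 (SE 0.186, FDR 0.031), just past 1.5-fold, and lost the call under 9 of 10 other settings and without MEKi library M2 or M4 or FGFRi library M2 or M5, each left out alone (0.49 to 0.53). *Upk3b* was at 214 ± 18.2 CPM with MEKi and 165 ± 24.1 CPM with FGFRi, without overlap but not called (0.38, SE 0.137, FDR 0.067). *Krt8* was at 45.5 ± 18.99 CPM with MEKi and 63.2 ± 11.9 CPM with FGFRi, with overlap, and was not called (−0.47, SE 0.228, FDR 0.204). *Krt7* (0.15, SE 0.148, FDR 0.575) and *Krt19* (0.14, SE 0.138, FDR 0.605) were not called either. Of the 7 tested members 2 were called, beside 6.43% of all genes, and 2 (*Krt18* and *Upk3b*) did not overlap, beside 14.8%. Neither called member was called by glmTreat or by voom with treat. Sertoli markers were lower with MEKi than with FGFRi in 7 of 8, at 595 to 868 against 1275 to 2426 summed CPM, and endothelial markers in 4 of 6, at 27.6 to 41.7 against 51.9 to 101 summed CPM. Their part in the *Krt18* difference was not tested.

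FGFRi and DMSO at 24 h lie in different library sets. *Krt18* was at 77.4, 84.5, 85.9 and 92.5 CPM with FGFRi and 39.7, 44.0, 51.5 and 52.4 CPM with DMSO (log2 fold change 0.85, SE 0.167, FDR 0.00063), and *Krt8* at 50.3, 73.2, 75.3 and 77.5 against 32.4, 40.3, 45.3 and 51.3 CPM (0.72, SE 0.224, FDR 0.0454). These were the 2 of 7 members called, beside 3.27% of all genes, and the call of *Krt8* was lost under 5 of 9 other settings and in 6 of the 8 fits that left out 1 library, without DMSO library M2, M3 or M4 or FGFRi library M1, M3 or M4 (0.59 to 0.75). Germ cell markers were lower with FGFRi in 3 of 4 tested, at 22.6 to 65.6 against 117 to 183 summed CPM, duct markers in 2 of 5 (*Lhx1* and *Epcam*), at 27.5 to 36.5 against 42.0 to 55.9 summed CPM, and macrophage markers in 2 of 5, at 12.5 to 17.7 against 24.1 to 49.9 summed CPM. Sertoli markers summed to 1489 to 2157 CPM with FGFRi and 1049 to 1576 CPM with DMSO. Their part was not tested. With total counts in place of TMM, calls over all genes went from 255 higher and 240 lower to 176 higher and 321 lower.

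**Figure D4:**
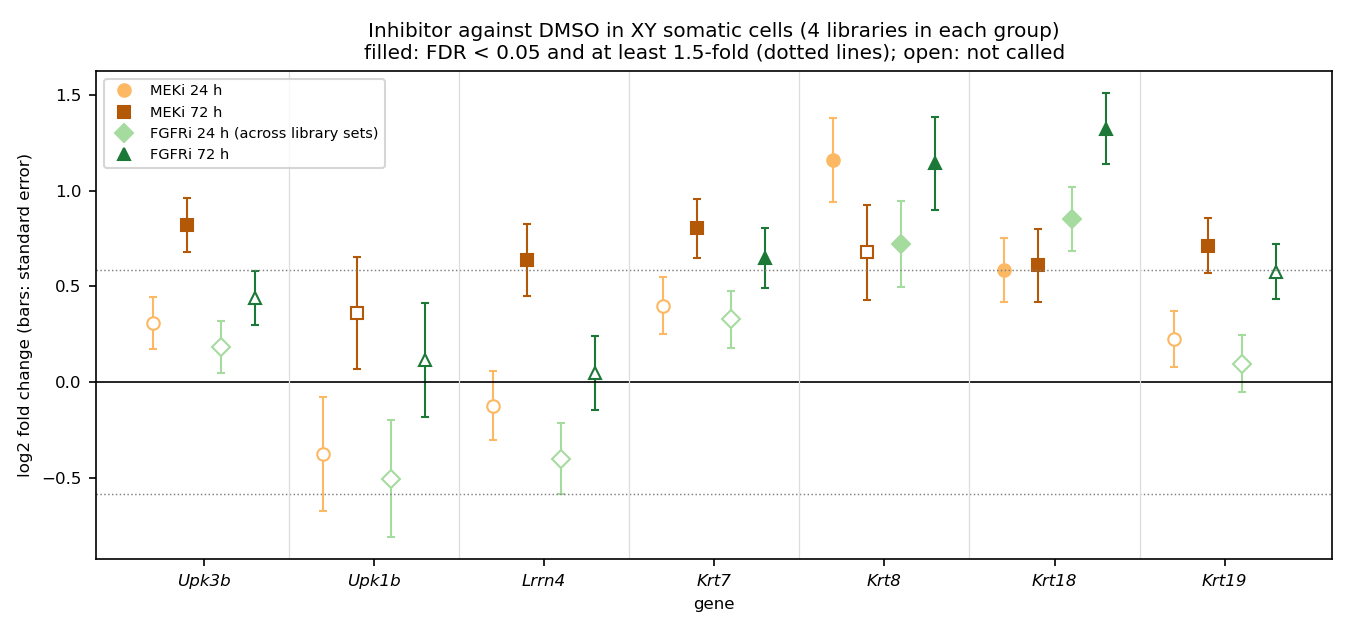
Log2 fold change of MEKi or FGFRi against DMSO in XY cells (y axis) for the 7 tested genes (x axis). MEKi is shown at 24 h (light orange circles) and 72 h (brown squares), and FGFRi at 24 h (light green diamonds, across library sets) and 72 h (dark green triangles). Bars are standard errors, and filled symbols are called genes. *Upk3b* is highest with MEKi at 72 h (0.82), and *Krt18* with FGFRi at 72 h (1.32).

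*Krt8* and *Krt18* encode usual filament partners, and their counts went together over the libraries. The ratio of *Krt8* to *Krt18* counts was 1.67 in XY cells at 0 h and 1.33 in XY cells after 24 h with MEKi, and between 0.802 and 1.11 in the other 8 groups. In XY cells at 0 h all 4 libraries had a log2 ratio of 0.60 to 0.97, and in XY cells after 24 h with DMSO they had −0.67 to 0.37, so these groups did not overlap. With MEKi at 24 h the log2 ratio was 0.17 to 0.64, and with FGFRi at 24 h −0.62 to −0.19. This ratio was examined after the levels had been seen and carries no test. Summed germ cell markers were also highest in these 2 groups, at 179 to 305 CPM in XY cells at 0 h and 245 to 485 CPM with MEKi at 24 h, and 7.45 to 206 CPM in all other libraries, and their part in the ratio was not tested.

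**Figure D5:**
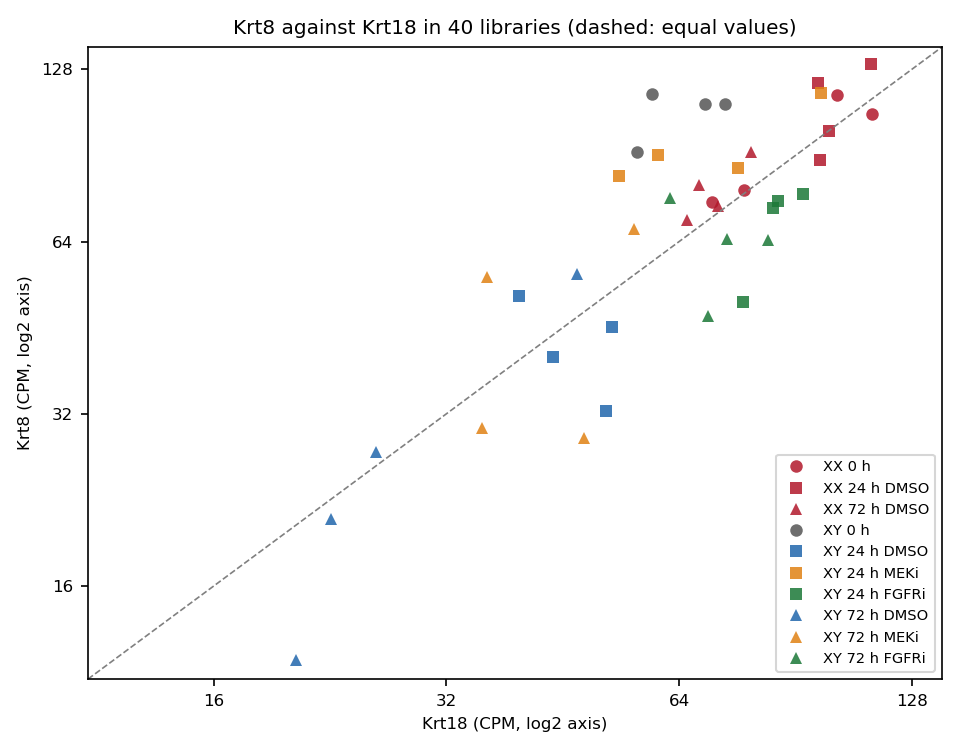
*Krt8* (y axis) against *Krt18* (x axis) in CPM on log2 axes for the 40 libraries, with circles for 0 h, squares for 24 h and triangles for 72 h. XX libraries are red, XY 0 h grey, and XY DMSO, MEKi and FGFRi blue, orange and green. The 4 XY libraries at 0 h lie above the dashed line of equal values, and 3 of the 4 XY libraries at 72 h with DMSO lie at the lower left.

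Over the 40 libraries, Pearson's r of log2 CPM differed widely between pairs of members. The r of *Upk3b* was 0.82 with *Krt7* and 0.81 with *Krt19*, and −0.06 with *Krt8*. The r of *Krt8* was 0.84 with *Krt18*, above that with any of the 12974 genes averaging 5 CPM or more, and −0.57 with *Upk1b*. These correlations describe libraries that share group, set and scaling. After each group's mean was subtracted, r was 0.63 for *Krt8* with *Krt18*, 0.18 for *Upk3b* with *Krt7* and 0.31 for *Upk3b* with *Krt19*.

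The non-member genes most like *Upk3b* were *Wfdc1* (r = 0.86), *Rnh1* (0.85), *Tgfb1i1* (0.82), *Uchl1* (0.80) and *Got1* (0.80). Those most like *Krt19* were *Tgfb1i1* (0.92), *Greb1* (0.91), *Pcyt2* (0.90), *Gas6* (0.89) and *Gm20186* (0.89). Those most like *Krt8* were *Ghitm* (0.82), *Polr2l* (0.80), *Slc25a39* (0.77), *Etnk2* (0.77) and *Isyna1* (0.77). *Lrrn4* had no close match, the nearest being *Kifap3* (0.69), *Phf20-ps* (0.66), *Mvp* (0.64), *Sphkap* (0.61) and *Ppp2r3a* (0.61). With group means subtracted, the r of *Wfdc1* with *Upk3b* was 0.55 and that of *Tgfb1i1* with *Krt19* was 0.12.

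Other mesothelium or surface epithelium genes were counted from a list of 14, of which 11 were tested. At 72 h, 5 were higher and 2 lower in XX than in XY cells, with a list median of 0.42 on the log2 scale beside −0.01 over all genes. The transcription factors *Emx2* (1.59) and *Wt1* (1.03), also made by other gonadal cells, were higher, as were podoplanin (*Pdpn*, 1.19) and the retinoic acid synthesis enzyme *Aldh1a2* (0.98), while *Nkain4* (−1.09) and *Gpm6a* (−0.71) were lower. With MEKi at 72 h, 3 were higher and none lower, *Pdpn* (0.96), *Aldh1a2* (0.92) and *Gpm6a* (0.85), with a list median of 0.39 beside 0.00. With FGFRi at 72 h and with MEKi at 24 h none of the 11 was called. Between 0 h and 24 h, 5 were called higher in XY cells (*Cldn15*, *Gpm6a*, *Muc16*, *Nkain4* and *Bnc1*, named after their values were seen) and 4 in XX cells, and none was called lower. The sum of the 14 genes did not rise with them. It went from 1835 to 1912 CPM down to 1497 to 1743 CPM in XX libraries. In XY libraries it was 780.2 to 862.4 CPM at 0 h and 750.1 to 899.7 CPM at 24 h.

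Of 11 other keratins and intermediate filaments, 7 were tested. *Krt20* was the keratin that differed most between the sexes, at 35.7 CPM in XX and 1.96 CPM in XY cells at 72 h (mean of 4, log2 fold change 4.09, SE 0.368, FDR 2.3e-13). *Krt15* was also higher in XX cells (1.30), and the filaments nestin (*Nes*, −1.35) and desmin (*Des*, −0.61) were lower. With MEKi at 72 h *Krt15* was higher (1.31) and *Nes* lower (−1.22), and with FGFRi at 72 h none of the 7 was called. *Krt15* had few counts, with means at 72 h of 6.35 CPM in XX cells, 2.30 CPM in XY cells with DMSO and 6.28 CPM with MEKi. No library of these groups had more than 20 counts of it. At 24 h with MEKi *Krt20* (2.15) was higher and *Nes* (−1.05) lower, values singled out after they had been seen. *Krt20* was low there, with means of 6.53 CPM with MEKi and 1.375 CPM with DMSO, and at most 18 and 9 counts in a library. The other 4 uroplakins did not pass the filter, and summed to 0.198 to 1.39 CPM in the group means. *Upk1a* averaged 0.563 CPM in XX and 0.664 CPM in XY cells at 72 h with DMSO. Of 12 genes of desmosomes, to which keratin filaments attach, and of other cell junctions, 11 were tested. In XX cells at 72 h 5 were higher, among them *Dsc2* (3.0), *Pkp2* (2.13), *Cgn* (1.98) and *Dsg2* (1.69), and *Dsp* was lower (−1.07). The list median was 1.32 beside −0.01 over all genes. Against DMSO only *Cgn*, a tight junction protein, was called with an inhibitor, higher with MEKi at 24 h and at 72 h (0.79) and with FGFRi at both times. The list median with MEKi at 72 h was −0.04 beside 0.00. At 72 h 5 of the 11 were lower with MEKi than with FGFRi and none was higher.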

How the data were processed

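Somatic cells were sequenced as 3′ RNA-seq libraries with unique molecular identifiers (UMIs), 40 libraries in 2 pools of 20. Per the methods for the libraries of these gonads, which describe germ cells, the authors demultiplexed and counted reads with scPipe and Rsubread on GRCm39 with GENCODE exons, strand in use, and collapsed UMIs. The release and versions are not given in the sources used here. The deposited values are raw UMI counts per gene, with no normalization. Identifiers were named from GENCODE M39 (40391 of 42422, holding 99.0% of counts). One 24 h MEKi library was assigned from the table's column and the barcode list, since its pool's description names 19 of 20.

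The counts were filtered with filterByExpr, scaled by TMM and fitted over all 10 groups with edgeR 4.0.16 (R 4.3.3) using glmQLFit and glmQLFTest, with Benjamini-Hochberg adjustment over 15125 genes. Calls needed an FDR under 0.05 and 1.5-fold. Alternatives were DESeq2 1.42.0, limma 3.58.1 (voom with quality weights and treat, the study's method), glmTreat, other scalings and filters, and leaving out libraries. Log2 CPM used a prior count of 2. Groups come from the labels. Where nothing says that libraries came from separate litters, p-values measure only the spread between libraries. The scripts were tested on simulated data. Named genes were the 8 members, up to 4 called genes of each related list and direction by size of change at 72 h (XX against XY and MEKi against DMSO), and the 5 genes closest to each of 4 members by correlation. The members and lists were chosen with earlier results of these data known. A comparison of the proteins was not run. Each comparison with 3 or 4 same-numbered pairs held a pair whose deviations from the group means correlated at r = 0.0561 or less. Replicate numbers were therefore not used to pair libraries. For FGFRi against DMSO at 72 h all 4 r were positive (0.00779 to 0.132). Comparisons with 1 or 2 such pairs could not decide this, so pairing was not excluded.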

Additional observations from a re-analysis of the deposited data

Results flagged for a closer look

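Over 80 groups of 4 libraries (8 genes in 10 groups), 5 held a library far from the other 3 by Dixon's test, which flags about 1 in 20 groups by chance. *Upk3b* in XY cells after 24 h with MEKi was 168.2 CPM in library M6 and 216.6 to 226.1 CPM in the others. *Krt8* in XY cells after 24 h with FGFRi was 50.3 CPM in library M5 and 73.2 to 77.5 CPM in the others. *Krt19* in XX cells after 24 h was 180.4 CPM in library F6 and 136 to 142 CPM in the others. *Upk1b* in XX cells at 0 h was 2.135 CPM in library F2 and 0.754 to 0.884 CPM in the others. *Msln* in XY cells at 0 h was 0.569 CPM in library M3, which is 1 count, and 0 in the others.

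For 2 members, the difference between XX and XY cells changed over the first 24 h of culture by the test of that change itself (edgeR's quasi-likelihood test). It changed by 1.58 on the log2 scale for *Krt8*, from −0.18 at 0 h to 1.4 at 24 h, and by −1.06 for *Lrrn4*, from 0.72 to −0.33.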

How the results depend on the processing

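The log2 fold changes of members kept their direction under all alternatives run wherever a member was called. Of the refitted values 104 lost their call, 17 gained one and 2026 did neither. Counts of called members fell most against 1.5-fold itself. From 4 at 0 h, 5 at 72 h (XX against XY), 2 and 5 (MEKi at 24 h and 72 h), 3 (FGFRi at 72 h), 2 (MEKi against FGFRi), 1 (FGFRi, 72 h against 24 h), 2 (FGFRi at 24 h), 1 (XY DMSO, 72 h against 24 h) and 2 (change of the XX-XY difference), glmTreat left 1, 3, 0, 0, 1, 0, 0, 0, 0 and 1, and voom with treat 0, 2, 0, 0, 0, 0, 0, 0, 0 and 1, as well as 1 of 3 for XX cells at 24 h against 0 h. With total counts 1 member was left for MEKi at 24 h, for MEKi against FGFRi and for FGFRi at 24 h. Total counts also gave 4 in place of 5 for MEKi at 72 h, and 4 in place of 3 for XX cells at 24 h against 0 h. Without a filter, or with a filter of 1 CPM in 4 libraries, 1 was left for MEKi at 24 h and for MEKi against FGFRi, and 4 were called for FGFRi at 72 h. Without a filter 6 were called for MEKi at 72 h and 1 for the change of the MEKi effect. With only the library set fitted, 1 was left for MEKi at 24 h and for MEKi against FGFRi. RLE scaling and fits of only the groups compared left 1 for MEKi against FGFRi, and DESeq2 left 1 there and for FGFRi at 24 h. Fits of only the groups compared also left 2 for FGFRi at 72 h and 2 for XX cells at 24 h against 0 h. The cause was not tested. With Spearman's in place of Pearson's correlation, 9 of the 20 nearest genes remained.

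When libraries were left out singly, the called members numbered 1 to 2 for MEKi at 24 h, 3 to 6 for MEKi at 72 h (3 without DMSO library M2 or MEKi library M2), 1 to 2 for MEKi against FGFRi, 1 to 2 for FGFRi at 24 h and 0 to 2 for XY DMSO at 72 h against 24 h. Calls also changed, as given above, for FGFRi at 72 h and for XX against XY at 0 h and 24 h. The same holds for XX cells at 24 h against 0 h. *Upk1b* at 1 to 53 counts and *Msln* at 0 to 12 counts per library were limited most by depth.

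Replicate numbers were not used to pair the libraries, though pairing was not excluded. With the replicate number as a block, 4 members in place of 5 were called for XX against XY at 72 h and for MEKi at 72 h, and 1 in place of 2 for MEKi and for FGFRi against DMSO at 24 h. The block changed no other count of called members.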
